A study of Mus musculus with 2 samples.

Results

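Matrix metalloproteinases (MMPs), the related ADAM and ADAMTS proteases, their tissue inhibitors (TIMPs) and the plasminogen activator genes Plau, Plaur and Plat were followed in mouse CMT93 cells given lipopolysaccharide (LPS). Members were taken by a rule on gene names, which gave 82 of the 34648 gene names on the array. They comprise 23 MMP genes, 4 TIMP genes, 33 ADAM genes, 19 ADAMTS genes and 3 genes of plasminogen activation, read by 120 probes. The tested sample was CMT93 cells exposed to LPS, a glycolipid of the Gram-negative outer membrane, for 24 h at 3 µg/mL, and it was set against control CMT93 cells. CMT93 is an established carcinoma line from the rectum of a C57BL/ICRF mouse, and both samples were grown in DMEM. The labels repeat 1 treatment note for both samples, and the titles were taken to show which one received LPS.

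MMPs are zinc-dependent enzymes that cut collagens and other proteins of the matrix around cells, and most are made as inactive precursors. TIMPs block them by occupying the active site. ADAMs sit in the cell membrane and release the outer parts of other membrane proteins, such as growth factors and cytokines, while ADAMTS enzymes are secreted and cut matrix proteoglycans and procollagens. Plasminogen activators turn plasminogen into plasmin, which degrades fibrin and can activate some MMP precursors. In the intestine these enzymes are known from wound repair, inflammation and tumour invasion.

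With a single array for each group, the differences could not be checked against replicates and no test between LPS and control cells was possible. Values are scaled intensities, which are the processed spot signals after both arrays were set to a common 75th percentile of 641, so that the ratio of both values is the fold. Intensities of different probes cannot be compared with each other. The lowest intensity of any probe well above background was 17.2 on the LPS array and 15.7 on the control array, and the share of spots passing as well above background was 54.7% with LPS and 55.8% in control cells. No spot was saturated. The error after ± is the SD of the log2 difference over repeated spots of probes of similar brightness, 0.11 for the dimmest such probes (up to 0.37) and 0.03 for the brightest. It covers the slide and not the cultures.

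All 8 epithelial markers were measured on both arrays, with summed intensities of 662356 on the LPS array and 743374 on the control array and log2 differences from -0.72 to -0.01. Of 8 fibroblast markers, 2 (Col1a1 at 0.33 and Col1a2 at 0.91) were measured on both arrays, and Col3a1, Thy1, Dcn and Lum were above background on neither. Pdgfrb was detected with LPS alone, at 27.2 with LPS and 3.53 in control cells, and Pdgfra in control cells alone, at 4.41 with LPS and 33.8 in control cells. Summed over all 8, detected or not, the fibroblast markers gave 296 with LPS and 223 in control cells. Of 8 macrophage markers, Csf1r and Cd68 were measured, at 0.06 and 0.30 on the log2 scale, and Lyz2, Tyrobp and Laptm5 were above background on neither array. Adgre1 (30.8 with LPS and 11.4 in control cells) and Mpeg1 (24.8 with LPS and 16.3 in control cells) were detected with LPS alone. Ptprc was detected in control cells alone, at 14.9 with LPS and 52.1 in control cells. All 8 summed to 2986 with LPS and 2693 in control cells. Of 7 neutrophil markers, 4 (Elane, Camp, Csf3r and Ly6g) were measured, at log2 differences from -0.17 to 0.54. Ngp was detected with LPS alone, and Mpo and Cxcr2 were above background on neither array. All 7 summed to 75531 with LPS and 79697 in control cells. Of 5 endothelial markers, 2 were measured, at log2 differences of 0.004 and 0.05. Cdh5, Tek and Emcn were above background on neither array, and all 5 summed to 5538 with LPS and 5370 in control cells. The part of other cell types in the differences below was not tested.

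Of the 82 members, 36 were measured, meaning well above background on both arrays. Another 2 were detected with LPS alone, against 1.88% of all genes, and 2 in control cells alone, against 2.72% of all genes. For 2 members different probes were above background on different arrays, and 40 were above background on neither, at intensities of 3.49 to 16.6 with LPS and 3.19 to 12.4 in control cells. Among the 36, Adamts17 and Timp3 were higher with LPS by 2-fold or more and none was 2-fold lower, while 1.47% of all 20311 measured genes were at least 2-fold higher and 0.571% were 2-fold lower. At 1.5-fold, 8 members were higher and 1, the tooth enamel protease gene Mmp20, was lower, while 3.59% of all measured genes were higher and 2.68% were lower. The median log2 difference was 0.15 for the members, with 25 of 36 above 0, and -0.02 for all measured genes, with 44.5% above 0. By family the medians were 0.69 for 6 measured ADAMTS genes, 0.55 for 3 genes of plasminogen activation, 0.50 for 3 TIMP genes, 0.07 for 16 ADAM genes and 0.01 for 8 MMP genes.

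**Figure D1:**
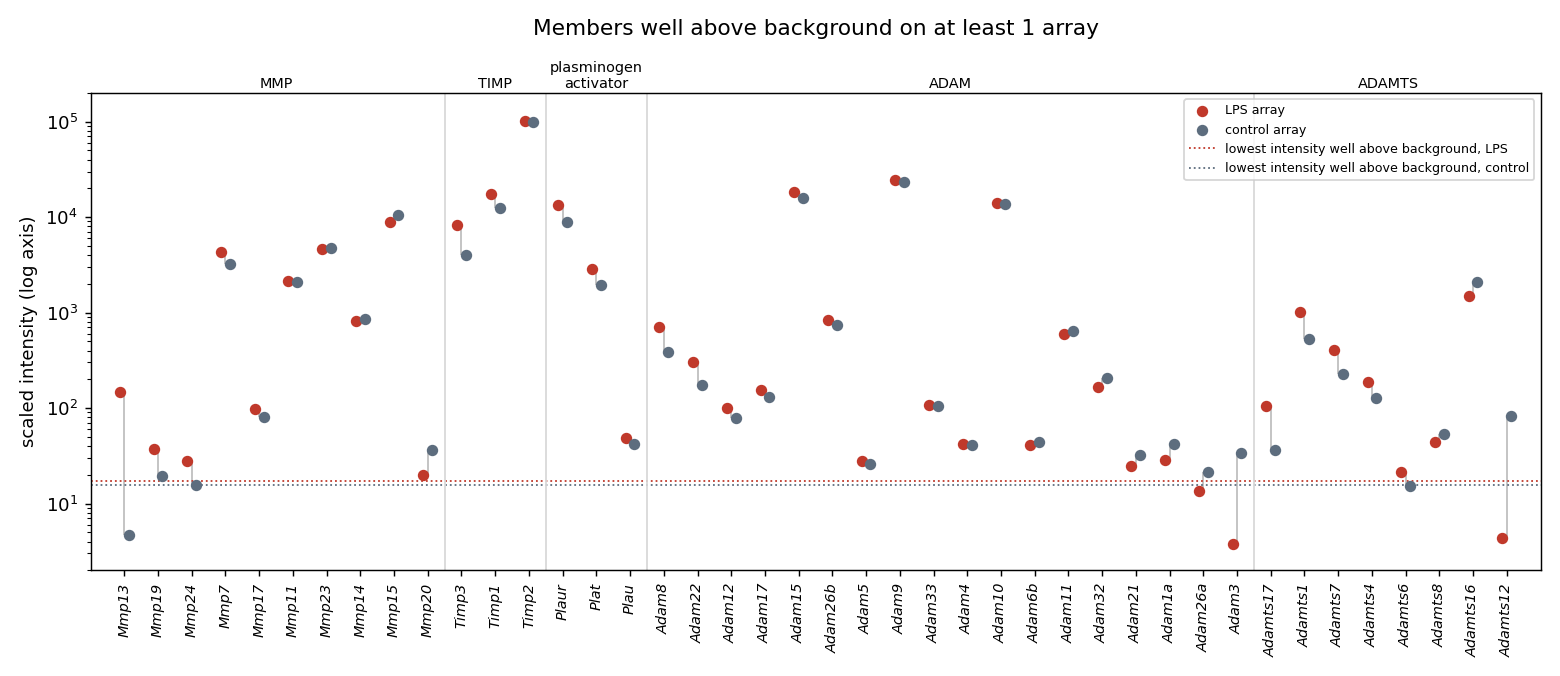
Scaled intensity (log axis) on the LPS array (red) and the control array (grey) for the 42 members above background on at least 1 array, by family, with dotted lines at the lowest intensity of any probe well above background on each array. Mmp13 stands at 148 on the LPS array and 4.65 on the control array, and most other pairs of points lie close together.

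The collagenase gene Mmp13, whose product cuts fibrillar collagens and serves rodents as a main interstitial collagenase, was detected on the LPS array only. Its probe, on chromosome 9 at 7282762 to 7282821 (mm9), gave an intensity of 148 on the LPS array, against 4.65 on the control array, where it was not well above background. It was the only Mmp13 probe, and each value came from 1 spot. With the lowest intensity of any probe above background in place of the control value, Mmp13 was at least 9.42-fold higher with LPS. The same bound came to 2.93-fold with normexp, another background correction. As set here, normexp adds an offset of 50 to every signal. This draws the folds of dim probes toward 1, for Mmp13 and in the normexp values below. A bound of at least 2-fold was reached by 45.3% of the 651 genes detected with LPS alone. In bulk RNA, more cells expressing a gene and more RNA per cell cannot be told apart.

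Mmp13 lies at the end of a cluster of 10 MMP genes on chromosome 9, which holds the collagenase, stromelysin and matrilysin genes. Mmp7, which encodes matrilysin, known in mice for activating the defensins of Paneth cells, was bright on both arrays, at 4268 with LPS and 3205 in control cells. Its log2 difference was 0.41 ± 0.04, or 1.33-fold. Mmp20 gave 20.0 with LPS and 36.0 in control cells, both near the background limit, for a log2 difference of -0.85 ± 0.11, or -0.28 with normexp. The other 7 genes of the cluster, Mmp12, Mmp1b, Mmp3, Mmp1a, Mmp10, Mmp8 and Mmp27, were above background on neither array. Among them are the stromelysin genes Mmp3 and Mmp10, the macrophage elastase gene Mmp12 and the neutrophil collagenase gene Mmp8. Thus 1 gene of 10 was detected with LPS alone, and 2 were detected on both arrays.

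**Figure D2:**
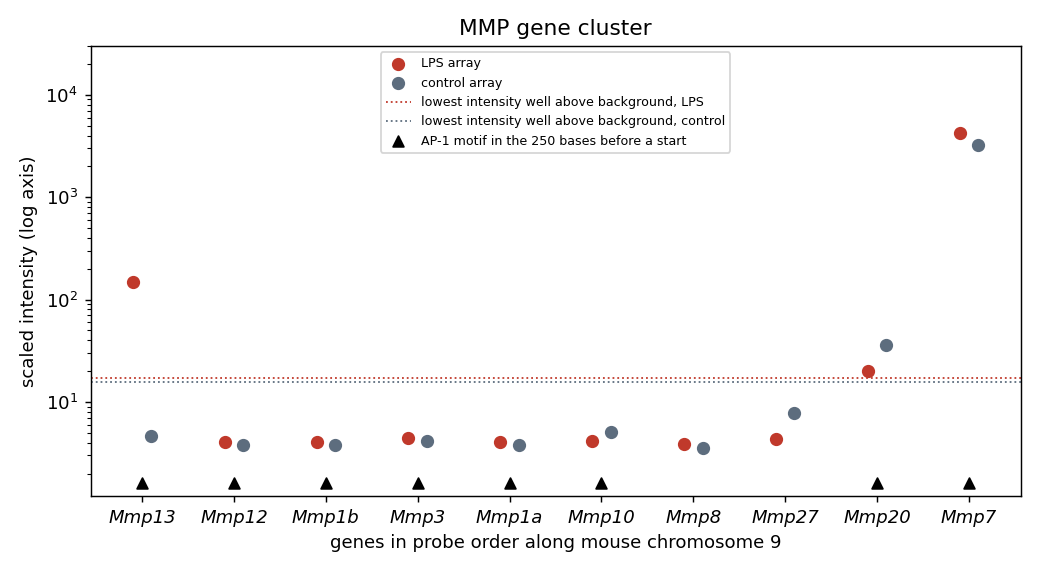
Scaled intensity (log axis) on the LPS array (red) and the control array (grey) of the 10 MMP genes on chromosome 9 in probe order, with triangles for genes whose 250 bases before a transcription start hold an AP-1 motif. Of 8 genes with the motif, 3 (Mmp13, Mmp20 and Mmp7) lie above a dotted background limit on at least 1 array.

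Promoters of this cluster are known targets of AP-1, a Fos and Jun transcription factor, and the windows before the starts were searched for its motif, TGANTCA, on both strands. RefSeq windows (GRCm38.p6) were found for 50 of the 82 members, 55 windows in all, each read over the 250 bases before a start. The motif was in 13 of these windows (23.6%) and in 6.75% of all 32851 windows. In the cluster it was in a window of 8 of 10 genes, all but Mmp8 and Mmp27. Outside the cluster it was found for Plaur, Adam19, Adam20, Adam25 and Adam29. The NF-kB motif was in 3 member windows (5.45%), those of Adam1b, Adam19 and Mmp25, and in 3.9% of all windows, and the ETS motif CCGGAA was in 3 (5.45%), those of Adam15, Adam17 and Adamts14, and in 12% of all windows. A match is a description of the letters and not a bound site.

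The 120 bases before the start are shown for the 3 detected genes of the cluster, for 2 undetected genes that also hold the motif, for Mmp8, which does not, and for Plaur. Capitals mark TGANTCA, and all are from the plus strand of GRCm38.p6, at chr9:7272394-7272513 for Mmp13, chr9:7691970-7692089 for Mmp7, chr9:7628111-7628230 for Mmp20, chr9:7445702-7445821 for Mmp3, chr9:7502222-7502341 for Mmp10, chr9:7558309-7558428 for Mmp8 and chr7:24462363-24462482 for Plaur.
Mmp13: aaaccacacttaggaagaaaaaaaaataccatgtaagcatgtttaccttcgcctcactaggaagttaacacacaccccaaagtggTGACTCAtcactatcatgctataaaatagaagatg
Mmp7: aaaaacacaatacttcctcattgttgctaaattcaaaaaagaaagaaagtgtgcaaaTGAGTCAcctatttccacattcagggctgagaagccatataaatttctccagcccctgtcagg
Mmp20: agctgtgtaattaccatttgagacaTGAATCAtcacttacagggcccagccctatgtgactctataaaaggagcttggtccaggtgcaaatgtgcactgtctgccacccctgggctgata
Mmp3: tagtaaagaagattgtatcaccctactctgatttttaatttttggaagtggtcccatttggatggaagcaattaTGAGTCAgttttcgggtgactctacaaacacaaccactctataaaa
Mmp10: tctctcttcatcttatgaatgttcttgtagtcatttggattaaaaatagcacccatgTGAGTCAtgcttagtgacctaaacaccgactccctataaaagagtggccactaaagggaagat
Mmp8: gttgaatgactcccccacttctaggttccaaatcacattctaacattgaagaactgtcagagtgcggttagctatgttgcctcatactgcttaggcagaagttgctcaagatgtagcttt
Plaur: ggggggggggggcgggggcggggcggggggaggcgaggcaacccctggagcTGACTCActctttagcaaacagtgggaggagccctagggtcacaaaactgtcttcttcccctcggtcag
The motif ends 28 bases before the start in Mmp13, 39 in Mmp3, 56 in Mmp7 and in Mmp10, 62 in Plaur and 88 in Mmp20. Mmp3, Mmp10 and Mmp7 carry the same TGAGTCA letters. The part of the motif in the intensities of these genes was not tested. Mmp13 and Plaur carry TGACTCA, and Mmp20 carries TGAATCA. A second window of Mmp7 holds no match.

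Mmp14, Mmp15 and Mmp17, which encode membrane-type MMPs, were measured on both arrays. Mmp14, which encodes the activator of the MMP2 precursor, gave 824 with LPS and 849 in control cells, a log2 difference of -0.04 ± 0.05. Mmp15, a close relative, gave 8893 with LPS and 10434 in control cells, a log2 difference of -0.23 ± 0.03. Mmp17, which encodes an enzyme held by a lipid anchor, gave 96.6 with LPS and 80.8 in control cells, a log2 difference of 0.26 ± 0.11. None of these 3 reached 1.5-fold. Of the gelatinase genes, neither Mmp2 nor Mmp9 was above background on either array, with Mmp9 at 4.01 with LPS and 3.48 in control cells over 10 spots of its probe.

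Of the remaining MMP genes, Mmp11, which encodes stromelysin 3, gave 2139 with LPS and 2082 in control cells. Its other probe also differed by only 0.03 on the log2 scale. Mmp23, which encodes an enzyme anchored by its N-terminal end, gave 4644 with LPS and 4693 in control cells, a log2 difference of -0.02 ± 0.03 that turned to 0.0001 with loess. Mmp19, whose product cuts basement membrane proteins, gave 37.2 with LPS and 19.4 in control cells, a log2 difference of 0.94 ± 0.11. It was at the background limit in control cells and stood at 0.30 with normexp. The 13 MMP genes above background on neither array were Mmp1a, Mmp1b, Mmp2, Mmp3, Mmp8, Mmp9, Mmp10, Mmp12, Mmp16, Mmp21, Mmp25, Mmp27 and Mmp28.

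Among the inhibitors, Timp3 was 2.06-fold higher with LPS. Its product is bound to the matrix and, unlike its relatives, also blocks ADAM17 and some ADAMTS enzymes. The Timp3 probe, on chromosome 10 at 85811696 to 85811755 (mm9), gave 8290 with LPS and 4025 in control cells, far above background on both arrays. The log2 difference of 1.04 ± 0.03 lay at the edge of 2-fold, and it ranged from 1.004 to 1.05 over the alternatives. Timp1, whose product inhibits most secreted MMPs, gave 17519 with LPS and 12385 in control cells, a log2 difference of 0.50 ± 0.03. Timp2, whose product takes part in MMP2 activation, gave 101392 with LPS and 97954 in control cells, a log2 difference of 0.05 ± 0.03, and its other probe stood at 0.001. The Timp2 value turned to -0.01 with quantile normalization. Timp4 was above background on neither array, at 16.2 with LPS and 12.1 in control cells, so the measured TIMP genes stood in the order Timp3, Timp1 and Timp2 by their log2 differences, each step larger than the SD over spots.

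**Figure D3:**
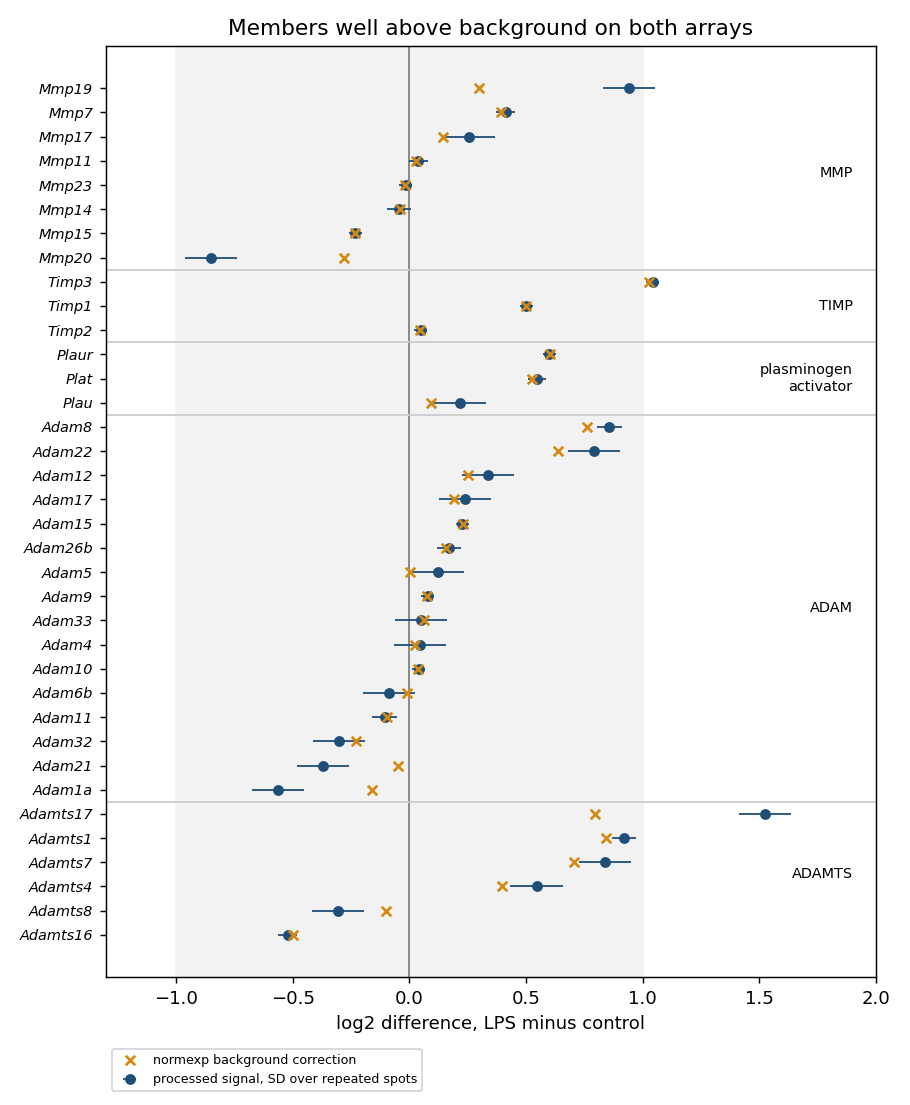
Log2 difference, LPS minus control, of the 36 members measured on both arrays, by family, with bars for the SD over repeated spots and crosses for the value with normexp background correction. The grey band marks less than 2-fold. Timp3 at 1.04 and Adamts17 at 1.52 lie outside it, and Adamts17 lies inside with normexp, at 0.79.

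All 3 genes of plasminogen activation were higher with LPS, by less than 2-fold. Plaur, the urokinase receptor gene, gave 13394 with LPS and 8833 in control cells, a log2 difference of 0.60 ± 0.03, or 1.52-fold. Plat, which encodes tissue plasminogen activator, gave 2830 with LPS and 1938 in control cells, a log2 difference of 0.55 ± 0.04. Plau, which encodes urokinase itself, was dim, at 48.7 with LPS and 42.0 in control cells, a log2 difference of 0.22 ± 0.11. The receptor gene and the tissue activator gene stood apart from 0 by far more than the SD over spots, which covers the slide only. Plau did so less clearly, and stood at 0.10 with normexp.

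Of 14 other genes of the plasminogen system, 9 were measured and 8 of these were above 0, with a median of 0.16. Over all measured genes, 44.5% were above 0, with a median of -0.02. None of the 9 was 2-fold lower, against 0.571% of all measured genes. The activator gene of hepatocyte growth factor, Hgfac, was at 0.75. The lowest were the plasminogen receptor gene Plgrkt at -0.23 and the antiplasmin gene Serpinf2 at 0.00. Serpinb2, which encodes a serpin that inhibits urokinase, was detected in control cells alone, and its bound was 1.27-fold lower with LPS.

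The membrane sheddase genes of the ADAM family were measured with small differences. Adam17, whose product releases TNF and EGF receptor ligands, gave 153 with LPS and 129 in control cells, a log2 difference of 0.24 ± 0.11. Its other probe stood at 0.28. Adam10, whose product cuts Notch and cadherins, gave 14002 with LPS and 13616 in control cells, a log2 difference of 0.04 ± 0.03 that turned to -0.01 with quantile normalization. Adam9, a sheddase active in the eye and in wound repair in mice, gave 24348 with LPS and 23062 in control cells, at 0.08 ± 0.03. Adam15, whose product carries an integrin-binding sequence in humans, gave 18394 with LPS and 15704 in control cells, at 0.23 ± 0.03. The folds of these 4 genes were at most 1.18 on their brightest probes, and 1.21 on the other Adam17 probe.

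Adam8, best known from leukocytes, was the highest of the 16 measured ADAM genes. It gave 699 with LPS and 386 in control cells, a log2 difference of 0.86 ± 0.05, or 1.81-fold. Adam22, whose product lacks protease activity and acts as a receptor in neurons, gave 303 with LPS and 175 in control cells, at 0.79 ± 0.11. Its other 2 probes were above background on neither array. Adam11, of the same inactive branch, gave 601 with LPS and 646 in control cells, at -0.11 ± 0.05. Adam12, known from muscle and placenta, gave 100.2 with LPS and 79.3 in control cells, at 0.34 ± 0.11, while a further probe of it was detected with LPS alone, at 24.1 with LPS and 9.26 in control cells. Adam33, linked to asthma in humans, gave 108 with LPS and 104 in control cells.

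Many mouse ADAM genes are expressed mainly in testis or epididymis, and some lie in a cluster on chromosome 8. Of 13 ADAM genes on chromosome 8, which include Adam9, 4 were measured, 2 were detected in control cells alone and 7 on neither array. Adam26b gave 833 with LPS and 740 in control cells, a log2 difference of 0.17 ± 0.05, and Adam32 gave 168 with LPS and 207 in control cells, at -0.30 ± 0.11. Adam3, known from sperm, gave 3.74 with LPS and 33.6 in control cells and was at least 1.95-fold lower, or 1.27-fold with normexp. Adam26a was at least 1.24-fold lower. Both readings came from 1 spot per array, and the other probe of each gene was above background on neither array. On other chromosomes, Adam1a, a fertilin gene, gave 28.4 with LPS and 41.9 in control cells, the lowest measured ADAM value at -0.56 ± 0.11 (-0.16 with normexp), and Adam21 stood at -0.37 ± 0.11 (-0.05 with normexp). Adam4, Adam5 and Adam6b lay between -0.09 and 0.12. Apart from Adam9, Adam26b and Adam32, the genes of this paragraph had intensities of at most 43.9 on both arrays, close to background. The 15 ADAM genes above background on neither array were Adam1b, Adam2, Adam6a, Adam7, Adam18, Adam19, Adam20, Adam23, Adam24, Adam25, Adam28, Adam29, Adam30, Adam34 and Adam39.

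The ADAMTS genes included the 1 further member past 2-fold. Adamts17, whose human counterpart is linked to a syndrome of short stature and lens displacement, gave 105 with LPS and 36.4 in control cells, a log2 difference of 1.52 ± 0.11, or 2.87-fold. It stood at 0.79 with normexp, and its other probe was above background on neither array. Adamts1, which encodes a protease of versican and aggrecan, gave 1008 with LPS and 532 in control cells, at 0.92 ± 0.05, or 1.89-fold. Adamts7, whose product cuts a cartilage matrix protein, gave 404 with LPS and 226 in control cells, at 0.84 ± 0.11. Adamts16, known from kidney and gonad, was lower, at 1474 with LPS and 2115 in control cells, a log2 difference of -0.52 ± 0.04, and Adamts8, described as an inhibitor of vessel growth, was at -0.30 ± 0.11 (-0.10 with normexp). Thus 3 of 6 measured ADAMTS genes were at least 1.5-fold higher and none was 1.5-fold lower, against 3.59% and 2.68% of all measured genes. Adamts6, known from heart development in mice, was detected with LPS alone, at 21.5 with LPS and 15.1 in control cells, near the background limits. Its bound was 1.37-fold higher, or 1.07-fold with normexp. The 11 ADAMTS genes above background on neither array were Adamts2, Adamts3, Adamts5, Adamts9, Adamts10, Adamts13, Adamts14, Adamts15, Adamts18, Adamts19 and Adamts20.

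Adamts4, which encodes an aggrecanase that TIMP3 blocks, depended on the probe. Its probe of higher mean intensity gave 188 with LPS and 129 in control cells, at 0.55 ± 0.11, and its other probe gave 206 with LPS and 84.0 in control cells, at 1.30, so only the second passed 2-fold. Both were well above background on both arrays and both were higher with LPS.

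For Adamts12 the probes gave opposite readings, and no direction can be stated for the gene. The probe toward the end of the gene, on chromosome 15 at 11266072 to 11266131 (mm9), gave 4.31 with LPS and 83.3 in control cells. The probe toward the start, at 11001462 to 11001521, gave 74.4 with LPS and 3.83 in control cells. Their log2 differences were -4.27 and 4.28, nearly equal and opposite, each from a single spot per array. The first 30 of the 60 bases of each probe are shown, in lower case, because the result turns on which is read.
Adamts12, probe toward the end: gctctcagaaaagaaccattcattgcatcc
Adamts12, probe toward the start: tctttccaacggctatgtcgtggagaagag
Mmp24, which encodes a membrane-type MMP of neurons, was also divided, with values close to background. Its probe of higher mean intensity gave 28.1 with LPS and 15.6 in control cells, and the other gave 16.5 with LPS and 22.1 in control cells. The exons or untranslated regions that the probes read were not analysed here.

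**Figure D4:**
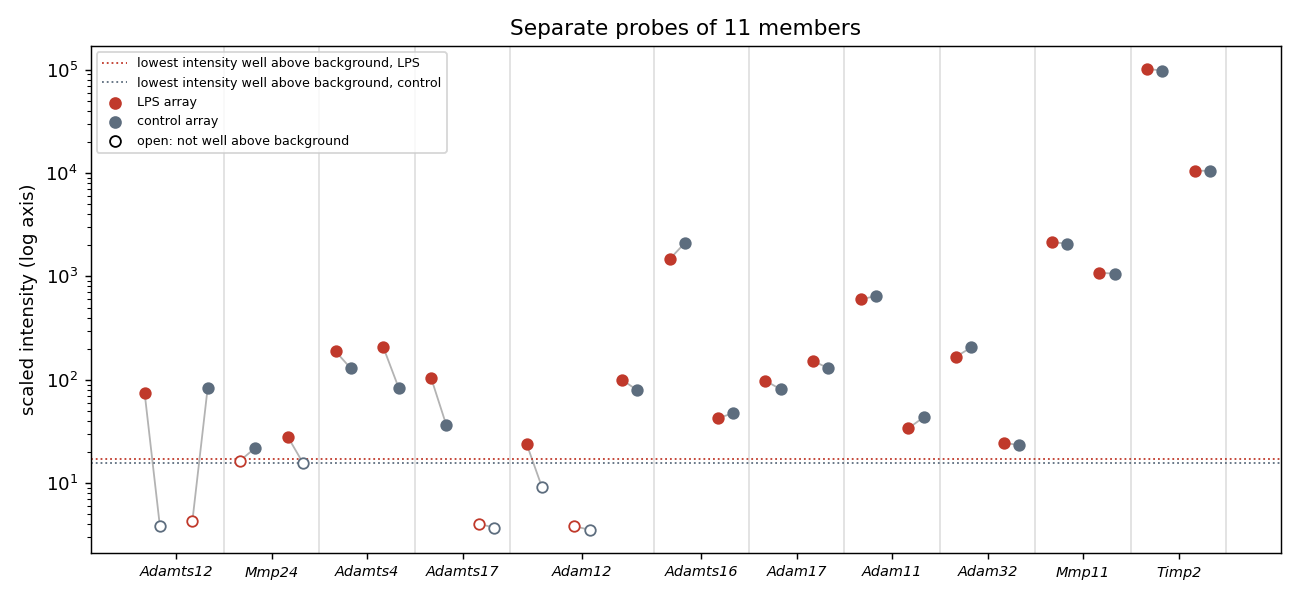
Scaled intensity (log axis) of the separate probes of 11 members on the LPS array (red, left of each pair) and the control array (grey), with open points where a probe was not well above background. The pairs of Adamts12 run in opposite directions, at -4.27 and 4.28 on the log2 scale, while both probes of Mmp11 and of Timp2 lie level.

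In all, 33 members had more than 1 probe, and 7 had at least 2 probes well above background on both arrays. Of these 7, Adamts4, Adamts16, Adam17, Adam11, Mmp11 and Timp2 had probes of the same sign. Adam32 did not, at -0.30 on the probe of higher mean intensity and 0.08 on the other. For Adamts16 the probes stood at -0.52 and -0.16, and for Adam11 at -0.11 and -0.36.

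Proteins that ADAMs release were represented by 35 genes, of which 27 were measured. Of these, 4 were at least 2-fold higher and 1 was 2-fold lower, with a median of 0.10. Over all measured genes, 1.47% were at least 2-fold higher and 0.571% were 2-fold lower, with a median of -0.02. Tnf, the cytokine gene whose product ADAM17 releases, was at 4.04 (3.11 with normexp), and Tnfrsf1b, which encodes a TNF receptor that is also shed, at 1.72 (1.06 with normexp). The chemokine genes Cx3cl1 and Cxcl16, whose products are membrane-bound until cut by ADAM10 or ADAM17, were at 1.16 (0.81 with normexp) and 1.09. Areg, which encodes the EGF receptor ligand amphiregulin, was at -1.01 (-0.97 with normexp), and the Notch ligand gene Jag1 at -0.96. The sheddase genes Adam10 and Adam17 themselves stood at 0.04 and 0.24.

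Among 21 genes for partners and activators of ADAM and MMP proteins, 19 were measured, with a median of 0.09. Of these, 2 were at least 2-fold higher and none was 2-fold lower, against 1.47% and 0.571% of all measured genes. Lcn2, whose human counterpart encodes a protein that can form a complex with MMP9, was at 9.26 (8.58 with normexp). Mmp9 itself was above background on neither array. Tspan33, which encodes a tetraspanin partner of ADAM10, was at 1.43. The proprotein convertase gene Pcsk6 and the tetraspanin gene Tspan5 were lowest, at -0.34 and -0.31. Rhbdf2, chosen after its value was seen, encodes the iRhom2 protein that brings ADAM17 to the cell surface and was at 0.65.

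Of 22 genes for other inhibitors and ADAMTS-like proteins, 7 were measured, with a median of 0.05. Of these 7, 1 was at least 2-fold higher, against 1.47% of all measured genes. That gene was Slpi, which encodes a secreted inhibitor of serine proteases, at 5.61. Pcolce2, which encodes a procollagen processing enhancer, was at 0.84, and Pcolce and Cst3 were lowest at -0.16 and -0.14. Of 32 other matrix and cell-surface proteases, 21 were measured, with a median of 0.00. Of these 21, 1 was at least 2-fold higher and none was 2-fold lower, against 1.47% and 0.571% of all measured genes. The lysosomal cathepsin gene Ctsh was at 1.46 and the heparanase gene Hpse at 0.83. Anpep, which encodes aminopeptidase N of the brush border, was at -0.85, and Mep1a, which encodes a meprin subunit, at -0.47 (-0.11 with normexp).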

How the data were processed

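The 2 samples were each hybridised to a one-colour (Cy3) Agilent array. The deposited values are spot intensity values that the authors obtained with Agilent Feature Extraction 10.10.1.1, and background had been subtracted and spatial trends removed, per the file headers. Control spots were dropped, as were 223 spots marked as outliers (2 of them of the genes described). The log2 of the processed intensity minus the array's 75th percentile was averaged over spots of a probe. A gene took its probe of highest mean intensity. It counted as measured where most spots of that probe were well above background on both arrays. No test was run, because each group had a single array, which limits the precision. Errors are SDs over spots of 238 probes printed repeatedly, and they cover the slide only.

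Members and lists were chosen with earlier results of these data known. All measured members could be named, and of each further list the 2 highest, the 2 lowest and every gene at least 2-fold different. A gene of these lists is not reported here. Genes of these lists detected on 1 array alone were also named, by their bounds. Other genes outside this rule are marked in the text as picked with their values in view. The alternatives were normexp with an offset of 50, signal floored at 1, quantile, cyclic loess with a span of 0.7, median and detected-probe scaling, the median over probes, 3 filters and a 1.5-fold threshold. The calling step alone was also run on simulated data. Whether the 2-fold calls would recur in further cultures was not tested. R 4.3.3, limma 3.58.1, Python 3.11.15, numpy 2.4.6, pandas 2.3.3 and matplotlib 3.10.9 were used. Protein features, which were to be described too, were not analysed here. Symbols matched RefSeq accessions for 107 of 120 probes, with no conflict.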

Additional observations from a re-analysis of the deposited data

How the results depend on the processing

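No paired analysis was possible because each group has 1 array, and no array could be left out. The count of members at least 2-fold higher, 2 as reported, was 1 with normexp (Timp3), 1 among the brighter genes alone (Timp3), 3 with a looser background flag (adding Mmp13), 4 without a background filter (adding Mmp13 and Adam29) and 8 at 1.5-fold. The count at least 2-fold lower, 0 as reported, was 2 without the filter (Adam3 and Adamts12) and 1 at 1.5-fold. The median of 0.15 was 0.085 with normexp, 0.22 with the looser flag, which measured 51 members, and 0.064 among the 14 brighter members. Filters and the threshold set which genes are counted. The offset of 50 that normexp adds to every signal draws log2 differences of dim probes toward 0. How much of the change with normexp this makes up was not tested. The other scalings gave medians from 0.13 to 0.19. With normexp, 13 of 36 members moved by more than the SD over spots, at most by 0.73. Sign changes were those of Adam10 and Timp2 with quantile normalization and Mmp23 with loess, all near 0. Of the 36 members, 18 lay in the dimmest brightness class, where signal over background limits the values most.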

Other observations

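Genes for matrix proteins that these enzymes cut were represented by 27 genes, of which 19 were measured, with a median log2 difference of 0.26. Of these 19, 1 was at least 2-fold higher and none was 2-fold lower, against 1.47% and 0.571% of all measured genes. Vcan, which encodes the proteoglycan versican, a substrate of ADAMTS1 and ADAMTS4, was at 1.39 (1.101 with normexp), and the basement membrane gene Nid1 was at 0.73. The laminin genes Lamb1 and Lama3 were lowest, at -0.62 and -0.52. The elastin gene Eln and the vitronectin gene Vtn were detected in control cells alone, with bounds of 3.02-fold and 1.35-fold lower with LPS, and the tenascin gene Tnc was detected with LPS alone, with a bound of 1.55-fold higher.

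All 25 genes for transcription factors known to bind metalloproteinase promoters were measured, with a median of 0.05. At least 2-fold higher were Cebpd at 2.42, which encodes a C/EBP factor of the acute-phase response, and Relb at 1.27, which encodes an NF-kB subunit, and none was 2-fold lower. Over all measured genes, 1.47% were at least 2-fold higher and 0.571% were 2-fold lower. Of AP-1 genes, chosen after their values were seen, Jun was at -0.65, Fos at -0.54, Fosl1 at -0.42, Jund at -0.40, Fosb at -0.05, Junb at 0.31 and Fosl2 at 0.56. The lowest of the list were the ETS factor gene Etv5 at -0.98 and Jun. The share of these factors in the values of the protease genes was not tested.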
